A study of Mus musculus with 4 samples.

Results

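The enzymes and partner proteins that place, copy and remove methyl groups on DNA were examined in cultures grown from induced pluripotent stem cells (iPSCs) of the mouse, made by returning adult cells to an embryo-like state. The set held 10 genes chosen for this function, Dnmt1, Uhrf1, Hells, Dnmt3a, Dnmt3b, Dnmt3l, Tet1, Tet2, Tet3 and Tdg. Of 45037 probe sets on the array, 23 named 1 of these genes alone, and they covered 9 of the 10. The remaining gene, Tdg, had 3 probe sets, each of which also named the pseudogenes Tdg-ps and Tdg-ps2. The genes were chosen by their function but also with a measured value in view, since the difference of Hells between DIO and control cells was already known. That difference is therefore given for every member as a description, without a test.

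The samples were 4 arrays, 2 from mice with diet-induced obesity (DIO) and 2 from healthy control mice, with 1 array per mouse. They are called DIO 1, DIO 2, control 1 and control 2 after the mouse. All 4 mice were 24 weeks old, and every culture was kept in endothelial cell medium and detached with trypsin before total RNA was taken. The labels give neither the strain of the mice nor the number of iPSC lines per mouse, and name no diet for either group. They call the samples biological duplicates.

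The titles describe the cells as endothelial, while the cell type entry reads iPSC. Of 20 endothelial marker genes, the brightest were Esam, at 8.76 and 9.11 in DIO 1 and DIO 2 and at 8.66 and 8.93 in control 1 and control 2, and Cdh5, the cadherin of endothelial junctions, at 8.48 and 9.34 in DIO and at 8.37 and 8.87 in control. The list, each gene by its brightest probe set, averaged 5.98 and 5.90 in DIO and 6.04 and 6.19 in control. Medians over all probe sets were 5.60 to 5.64, which is not a like measure, since these include the dimmer probe sets of each gene. The DIO mean was higher for 9 of the 20 and lower for 11, with a median difference of −0.07. Both DIO arrays were above both controls for 2 and below for 5, where 21.4% and 17.0% of all genes were. The receptors Tek, Flt1 and Kdr, among those 5, differed by −1.33 ± 0.61, −0.50 ± 0.15 and −0.28 ± 0.20 (DIO minus control, moderated SE), and against control 1 alone by −0.51, −0.47 and −0.03. The 20 pluripotency markers averaged 10.35 and 9.31 in DIO and 9.96 and 9.08 in control. Control 2 stood apart by its epidermal genes, of which all 22 measured were highest there, as in the keratin Krt10 at 9.48 and 11.22 in DIO 1 and DIO 2 and at 7.0 and 13.96 in control 1 and control 2. The membrane protein Perp was at 11.56 and 11.67 in DIO and at 11.03 and 12.90 in control. The keratin Krt14 was at 8.97 and 8.75 in DIO and at 9.12 and 11.42 in control. Krt16 was at 6.81 and 7.52 in DIO and at 8.36 and 11.43 in control. DIO 1 exceeded DIO 2 for 1 of the 22, with a median difference of −0.62. The DIO means of these genes differed by a median of 1.19 against control 1 and of −3.56 against control 2. All values are log2 expression levels, which can be set against one another between probe sets only roughly. Without detection calls, a dim level cannot be told from background. Among RNA controls, the 3 probe sets of 18S ribosomal RNA were lower in both DIO arrays than in either control, as in the middle probe set at 12.01 and 11.75 in DIO and 12.20 and 12.31 in control. Each Gapdh control probe set was higher in mouse 1 than in mouse 2 of both groups, while those of actin had no common order. The 5′ Gapdh probe set was at 13.54 and 13.24 in DIO and at 13.50 and 13.18 in control. The part of these differences in the results that follow was not tested.

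In mammals, DNA methylation lies mostly on cytosines followed by guanine. Dnmt3a and Dnmt3b set the mark on unmethylated DNA, with Dnmt3l as a partner that lacks catalytic activity, and Dnmt1 copies it to the new strand after replication, where Uhrf1 recognizes the half-copied site. Tet enzymes oxidize the methyl group, and Tdg excises the oxidized base. Embryonic stem cells are known for high levels of Dnmt3b, Dnmt3l and Tet1, and reprogramming to an iPSC requires that methylation be removed from the genes of pluripotency.

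Over the 23 probe sets, the groups were not displaced one way. The DIO mean was higher for 15 probe sets and lower for 8, where 52.4% of all probe sets had a higher DIO mean. For 4 probe sets both DIO arrays were higher than both controls, where 22.3% of all probe sets were, and for another 4 both were lower, where 19.0% were. These shares of 23 are close to the background. The median difference, DIO minus control, was 0.11 over the members and 0.01 over all probe sets. Without control 2 the members' median was −0.20, with 6 probe sets higher, and without DIO 1 it was −0.12, with 10 higher, so its direction rested on those arrays. In limma with Benjamini-Hochberg adjustment, 0 of 45037 probe sets passed an adjusted threshold of 0.05 in either direction (0.0%), and the smallest adjusted p was 0.531. Unadjusted, 4184 probe sets (9.29%) had a p below 0.05. Without control 1, 592 probe sets passed, 22 of them higher in DIO, and 0 of the 23 members were among them. That fit leaves control 2 alone in its group, so the spread comes from the 2 DIO arrays and the lone control is assumed to vary like them. With 2 arrays a group, the smallest 2-sided p of an exact permutation test is 0.333.

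**Figure D1:**
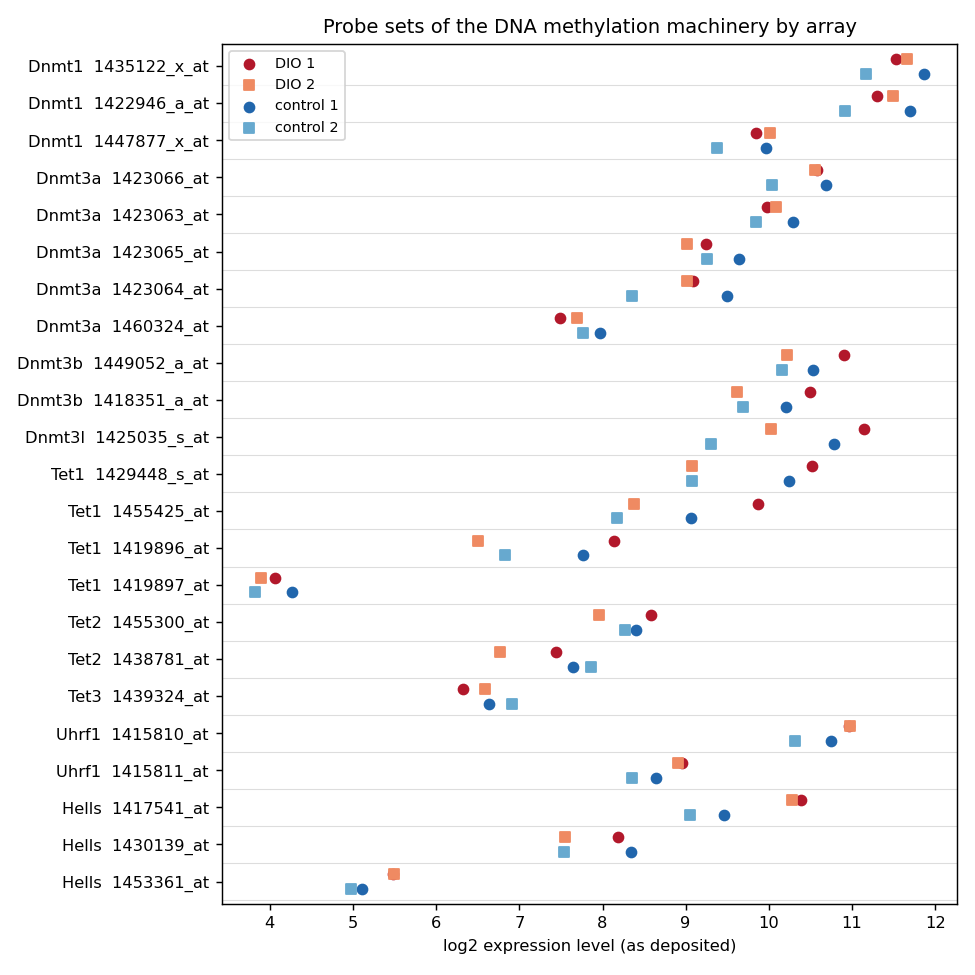
Log2 expression level (horizontal axis) of each of the 23 probe sets in the 4 arrays, with DIO arrays drawn above the controls in each row. Points of mouse 1 are circles and points of mouse 2 squares. DIO lies to the right of both controls for both Uhrf1 probe sets and for 2 of the 3 Hells probe sets, while circles lie to the right of squares in both groups for Dnmt3l, both Dnmt3b and all 4 Tet1 probe sets.

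Among the genes that maintain methylation, Hells had the greatest difference between the groups in the set, but its 3 probe sets did not move together. Hells is a chromatin remodeller of the SNF2 family that is needed for normal DNA methylation in mice. Its brightest probe set, 1417541_at, was at 10.39 and 10.27 in DIO 1 and DIO 2 and at 9.46 and 9.05 in control 1 and control 2. Both DIO arrays were above both controls, with a gap of 0.81 between the nearest arrays. The means were 10.33 ± 0.08 in DIO and 9.26 ± 0.29 in control (SD, n = 2 each), and the difference was 1.07 ± 0.18 (moderated SE). A difference of 1 or more was seen in 0.124% of all probe sets. This difference is the one that was known when the genes were chosen.

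The dimmer Hells probe set 1453361_at was at 5.48 and 5.50 in DIO and at 5.11 and 4.98 in control, a difference of 0.45 ± 0.12. Here too the groups did not overlap. The third, 1430139_at, was at 8.18 and 7.55 in DIO and at 8.35 and 7.53 in control, a difference of −0.07 ± 0.37. In that probe set the mouse 1 arrays were high and the mouse 2 arrays low in both groups, and the groups overlapped. Its sign changed to 0.34 without control 1, to 0.24 without DIO 2 and to 0.05 after quantile normalization. With the 3 probe sets averaged, the Hells difference was 0.48. By the brightest probe set, the difference was 0.87 against control 1 alone and 1.28 against control 2 alone.

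Uhrf1, which binds half-methylated DNA and brings Dnmt1 to it, had 2 probe sets that ran the same way. The brighter, 1415810_at, was at 10.97 and 10.98 in DIO and at 10.74 and 10.32 in control. The other, 1415811_at, was at 8.95 and 8.90 in DIO and at 8.64 and 8.36 in control. In both, each DIO array was above each control, and the DIO arrays differed from one another by less than the controls did. The differences were 0.45 ± 0.18 and 0.43 ± 0.15. Against control 1 alone they were 0.23 and 0.29, and against control 2 alone 0.66 and 0.57.

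Dnmt1, the maintenance methyltransferase, showed overlapping groups in all 3 of its probe sets. Probe set 1435122_x_at was at 11.53 and 11.66 in DIO and at 11.87 and 11.16 in control, so control 1 was the highest array and control 2 the lowest. The same order of the controls held for 1422946_a_at, at 11.30 and 11.49 in DIO and 11.69 and 10.92 in control. For 1447877_x_at, at 9.84 and 10.02 in DIO and 9.96 and 9.37 in control, DIO 2 was the highest array. The differences were 0.08 ± 0.27, 0.09 ± 0.29 and 0.26 ± 0.24, and without control 2 they were −0.27, −0.30 and −0.04. The level in DIO thus lay between the controls or, for the last probe set, close to control 1.

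**Figure D2:**
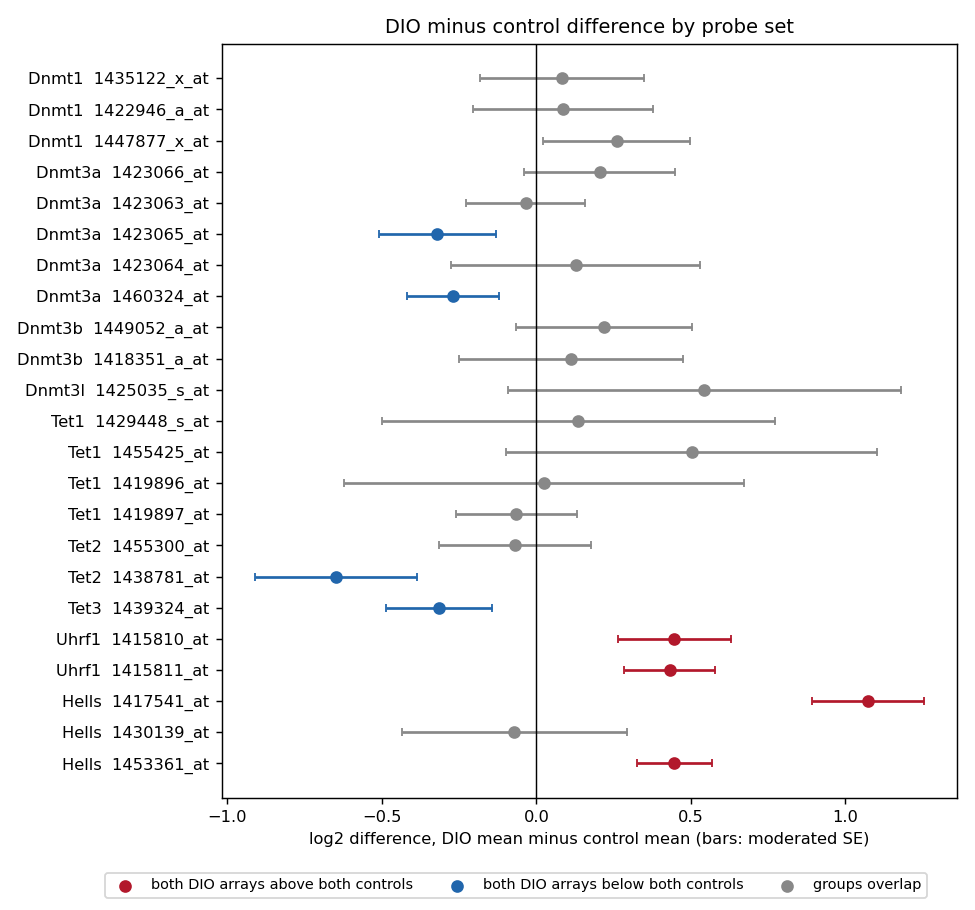
Difference in log2 level, DIO mean minus control mean (horizontal axis), of each of the 23 probe sets, with bars of 1 moderated SE. Red points mark the 4 probe sets whose DIO arrays both lie above both controls, blue points the 4 whose DIO arrays both lie below them, and grey points the 15 with overlapping groups. The point farthest from 0 is Hells 1417541_at at 1.07.

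For each maintenance gene, 1 promoter window carried a sequence that was not found in the windows of the other members. Windows from 250 bases before to 50 bases after the annotated start came from RefSeq (build GRCm38.p6), with 17 windows for the 10 genes. They were searched on both strands for the letters TTTCCCGC, TTTGGCGC, TTTGCCGC and TTTCGCGC, the forms of the site bound by E2F factors, which act on genes of DNA replication. A match was found in 3 of the 17 member windows, 1 each of Hells, Uhrf1 and Dnmt1, and in 2.26% of all 32851 windows. Each form searched holds a C followed by a G, a pair more frequent in the member windows. That share is therefore not a like background, and windows of like content were not compared. The sequences shown were picked because they hold a match, and among the members only Hells, Uhrf1 and Dnmt1 had such a window. Matched letters are in capitals, and GCGCGAAA is TTTCGCGC on the other strand. The first line, for Hells, is chr19:38930740-38930989 on the + strand. The next, for Uhrf1, is chr17:56304063-56304312 on the + strand and precedes the downstream of its 2 annotated starts. The last lines are 30 bases each of a Dnmt1 window, chr9:20952824-20952853 and chr9:20952574-20952603 on the − strand.
Hells: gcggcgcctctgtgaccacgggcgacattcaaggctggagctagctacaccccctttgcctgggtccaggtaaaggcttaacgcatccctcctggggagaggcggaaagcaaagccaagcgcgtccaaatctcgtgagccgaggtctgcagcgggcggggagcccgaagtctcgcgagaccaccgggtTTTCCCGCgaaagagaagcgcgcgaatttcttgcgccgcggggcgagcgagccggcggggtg
Uhrf1: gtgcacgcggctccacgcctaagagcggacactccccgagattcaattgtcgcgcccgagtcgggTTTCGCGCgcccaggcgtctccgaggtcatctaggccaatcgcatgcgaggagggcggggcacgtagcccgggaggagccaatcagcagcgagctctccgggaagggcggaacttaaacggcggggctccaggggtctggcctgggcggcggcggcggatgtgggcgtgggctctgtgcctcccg
Dnmt1: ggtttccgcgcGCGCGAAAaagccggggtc
Dnmt1: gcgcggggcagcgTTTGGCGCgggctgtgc

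A match of letters is not a bound site, and its absence from the other windows says only that these letters were not there. The member windows were also rich in the substrate of the enzymes. They held a median of 22 CpG dinucleotides, against 7 over all windows, and a median G and C content of 65.7%, against 52.7%. The window of Tet2 held 57 CpG and those of Dnmt3a 46, 47 and 18. The 3 windows of Dnmt3l held 6, 4 and 3 CpG, and 1 of the 3 windows of Dnmt1, chr9:20959839-20960138, held 2. The GC box GGGCGG was found in 13 of the 17 windows and in 35.7% of all windows. The octamer ATGCAAAT and the TATA box TATAAA, in 1.74% and 13.6% of all windows, were found in 0 of the 17. The GC box holds a CpG too, so its share over all windows is not a like background either.

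Of the de novo methyltransferases, Dnmt3a was measured by 5 probe sets, whose differences ran from −0.32 to 0.20. The brightest, 1423066_at, was at 10.58 and 10.56 in DIO and at 10.68 and 10.04 in control, and the groups overlapped. For 1423065_at the values were 9.25 and 9.01 in DIO and 9.64 and 9.26 in control, and both DIO arrays lay below both controls by a gap of 0.01. A similar order was seen in 1460324_at, at 7.49 and 7.70 in DIO and 7.97 and 7.76 in control. Their differences were −0.32 ± 0.19 and −0.27 ± 0.15. The other 2 probe sets overlapped, 1423063_at at 9.98 and 10.09 in DIO and 10.29 and 9.84 in control, and 1423064_at at 9.09 and 9.02 in DIO and 9.50 and 8.36 in control. Control 1 was the highest array in all 5 probe sets. The average of the 5 differed by −0.06, while the brightest alone differed by 0.20 ± 0.24, so no common direction was measured for Dnmt3a.

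Dnmt3b and Dnmt3l differed more between the mice of a group than between the groups. Dnmt3b probe set 1449052_a_at was at 10.91 and 10.22 in DIO 1 and DIO 2 and at 10.53 and 10.16 in control 1 and control 2. The second, 1418351_a_at, was at 10.50 and 9.62 in DIO and at 10.20 and 9.69 in control. Mouse 1 was above mouse 2 in each group by both probe sets. The differences of the groups were 0.22 ± 0.28 and 0.11 ± 0.36, and without DIO 1 they were −0.12 and −0.33.

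Dnmt3l, the catalytically inactive partner, was measured by the single probe set 1425035_s_at. It was at 11.14 and 10.03 in DIO and at 10.78 and 9.30 in control, with means of 10.59 ± 0.79 and 10.04 ± 1.05 (SD, n = 2 each). DIO 1 and control 1 were the high arrays, and the range over the 4 arrays, 1.84, was the widest of the 23 probe sets. The difference of 0.54 ± 0.64 was smaller than the 1.12 between the DIO arrays and the 1.48 between the controls. It was −0.20 without control 2 and −0.01 without DIO 1. The ending of this probe set's name marks probes that the manufacturer found to match more than 1 transcript, and the platform annotation names Dnmt3l alone for it.

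The Tet genes divided in the same manner. Tet1, the oxidizing enzyme known for its high level in embryonic stem cells, was at 10.52 and 9.08 in DIO and at 10.25 and 9.08 in control by its brightest probe set, 1429448_s_at. By 1455425_at it was at 9.87 and 8.37 in DIO and at 9.07 and 8.17 in control, and by 1419896_at at 8.14 and 6.51 in DIO and 7.77 and 6.83 in control. In each of the 3, mouse 1 exceeded mouse 2 in both groups, by 1.44 to 1.64 in DIO and by 0.90 to 1.17 in control. The groups overlapped, with differences of 0.14 ± 0.64, 0.50 ± 0.60 and 0.03 ± 0.65. Without DIO 1 these were −0.58, −0.25 and −0.79. The fourth probe set, 1419897_at, was at 4.07 and 3.89 in DIO and 4.26 and 3.82 in control, with a mean level at the 23.1 percentile of all probe sets, and gave −0.06 ± 0.20.

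Tet2 and Tet3 had lower DIO means in their 3 probe sets, 2 of them without overlap, but the difference of the third, Tet2 1455300_at, changed sign in some settings. Tet2 1438781_at was at 7.44 and 6.77 in DIO and at 7.64 and 7.86 in control, a difference of −0.65 ± 0.26, with DIO 2 the lowest array. It was −0.98 without DIO 1 and −0.31 without DIO 2. Its brighter probe set, 1455300_at, was at 8.58 and 7.95 in DIO and at 8.41 and 8.27 in control, where the groups overlapped and the difference was −0.07 ± 0.25. That difference was 0.25 without DIO 2 and 0.02 after quantile normalization. Tet3, measured by 1439324_at alone, was at 6.32 and 6.59 in DIO and at 6.63 and 6.91 in control. Both DIO arrays lay below both controls for Tet3, with a gap of 0.04 and a difference of −0.31 ± 0.17. Control 1 was nearly as low as DIO 2, and against control 1 alone the difference was −0.17.

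The probe sets that Tdg shares with its pseudogenes hardly varied. The brightest of the 3, 1435715_x_at, was at 10.89 and 10.97 in DIO and at 10.88 and 10.87 in control. Their differences were 0.05 ± 0.12, 0.09 ± 0.11 and 0.03 ± 0.13. The signal of Tdg cannot be told apart from that of the pseudogenes in these probe sets, and they entered none of the counts.

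A further pattern within the set lay between mice of the same group. It was noticed in the values and is given without a test. Mouse 1 was above mouse 2 in both groups for 14 of the 23 probe sets, where 32.7% of all probe sets had this order. Control 1 was above control 2 for 21 of the 23 and DIO 1 above DIO 2 for 15, so the order was more frequent in the controls. Whether the 14 exceed what these counts alone would give was not tested. Mouse 1 was above mouse 2 in both groups by 1 or more for 2 of them, Dnmt3l 1425035_s_at and Tet1 1429448_s_at, where 0.124% of all probe sets were. The mouse numbers are only names in the labels, and nothing there ties DIO 1 to control 1. Control 2 was the lowest of the 4 arrays for 15 of the 23 probe sets, where 36.2% of all probe sets had it lowest.

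**Figure D3:**
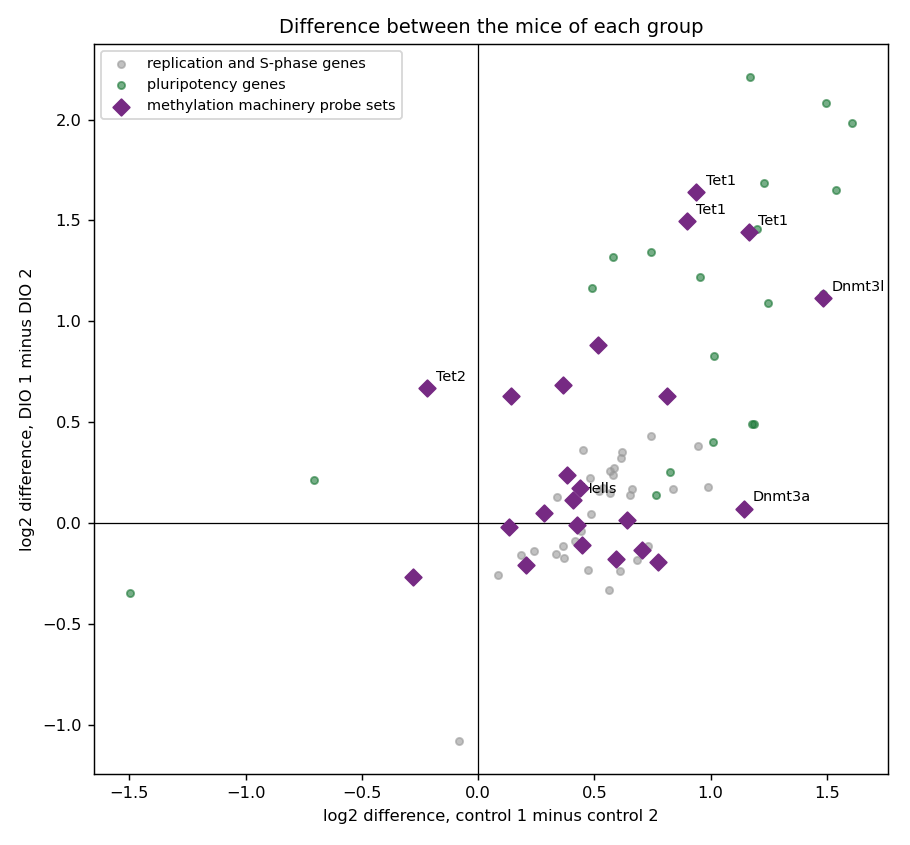
Difference in log2 level between the mice of a group, DIO 1 minus DIO 2 (vertical axis) against control 1 minus control 2 (horizontal axis), for the 23 probe sets (diamonds), 20 pluripotency genes (green) and 32 replication and S-phase genes (grey). Names are given for members whose range over the 4 arrays exceeds 1. Tet1 and Dnmt3l lie at the upper right among most of the pluripotency genes, while Hells 1417541_at lies among the grey points at 0.41 and 0.12.

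Markers of pluripotent cells moved with this pattern. Mouse 1 was above mouse 2 in both groups for 18 of the 20, by a median of 1.15 in DIO and of 1.09 in control. The epidermal genes ran the other way, with mouse 1 above mouse 2 in both groups for 0 of 22. Of all probe sets, 32.7% had this order. That share is not a like background, since each listed gene was taken by its brightest probe set. Sall4, a zinc finger factor of pluripotent cells, was at 11.20 and 10.80 in DIO and at 11.15 and 10.14 in control, and Dppa5a, an RNA-binding protein of stem cells, at 13.45 and 12.12 in DIO and 12.66 and 12.07 in control. In these bulk samples, fewer cells of a type and less RNA per cell cannot be told apart. The part of the pluripotency genes in the levels of Tet1, Dnmt3b and Dnmt3l was not tested. Between the groups, the DIO mean was higher for 18 of the 20 markers, where 53.3% of all genes had a higher DIO mean by their brightest probe set, with a median difference of 0.34, but for 6 without control 2 and for 5 without DIO 1. The groups did not overlap for Lin28a, an RNA-binding protein, at 0.76 ± 0.28, and Klf5, a zinc finger factor also found in epithelia, at −0.49 ± 0.27. Without control 2 these were 0.38 and −0.14. Of 12 measured genes of the primed epiblast, a list that holds Dnmt3b, 7 had a higher and 5 a lower DIO mean, with a median of 0.14. Pou3f1, a POU factor of that stage, was at 8.96 and 8.99 in DIO and at 8.40 and 8.08 in control, and Lefty1 and Foxa2 differed by 0.58 ± 0.20 and −1.14 ± 0.58, all 3 without overlap. Against control 1 alone, Pou3f1 differed by 0.58, Lefty1 by 0.81 and Foxa2 by −0.39, and against control 2 alone Lefty1 differed by 0.35.

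Genes of replication and S phase ran with Uhrf1 and Hells 1417541_at in the difference between the groups. Mouse 1 was above mouse 2 in both groups for 18 of the 32, each by its brightest probe set. Over all probe sets, dimmer ones included, the share was 32.7%, which is not a like background. Control 1 was above control 2 for 31 of the 32, and DIO 1 above DIO 2 for 18. The medians of mouse 1 minus mouse 2 were 0.13 in DIO and 0.55 in control. Hells 1417541_at and 1430139_at and Uhrf1 1415811_at had mouse 1 above mouse 2 in both groups too, the last by 0.05 in DIO. The brighter Uhrf1 probe set, 1415810_at, and Hells 1453361_at did not, with DIO 1 minus DIO 2 at −0.01 and −0.02. The DIO mean was higher for 32 of 32 measured genes (53.3% of all genes), with a median difference of 0.34, and both DIO arrays were above both controls for 17, where 21.4% of all genes were, each by its brightest probe set. The median was 0.10 against control 1, with 22 genes higher, and 0.58 against control 2, which was the lowest array for 31 of the 32. Over all probe sets, dimmer ones included, control 2 was lowest for 36.2%. Cdt1, which loads the replicative helicase, was at 12.08 and 12.27 in DIO and at 11.97 and 11.29 in control, a difference of 0.55 ± 0.26. Mcm7, a subunit of that helicase, differed by 0.22 ± 0.24 with overlapping groups. Among genes whose groups did not overlap, the differences were widest for the cyclins Ccne2 and Ccne1, at 1.21 ± 0.38 and 0.79 ± 0.18, and for Orc1, a subunit of the origin recognition complex, at 0.62 ± 0.36. Against control 1 alone Cdt1 differed by 0.20 and Orc1 by 0.13, and without DIO 2 Ccne2 differed by 0.67. Hells 1417541_at, at 1.07, thus lay above the list's median and under Ccne2. None of these genes passed in limma, and the list overlaps in content with cell division genes already known to have higher DIO means in these data.

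**Figure D4:**
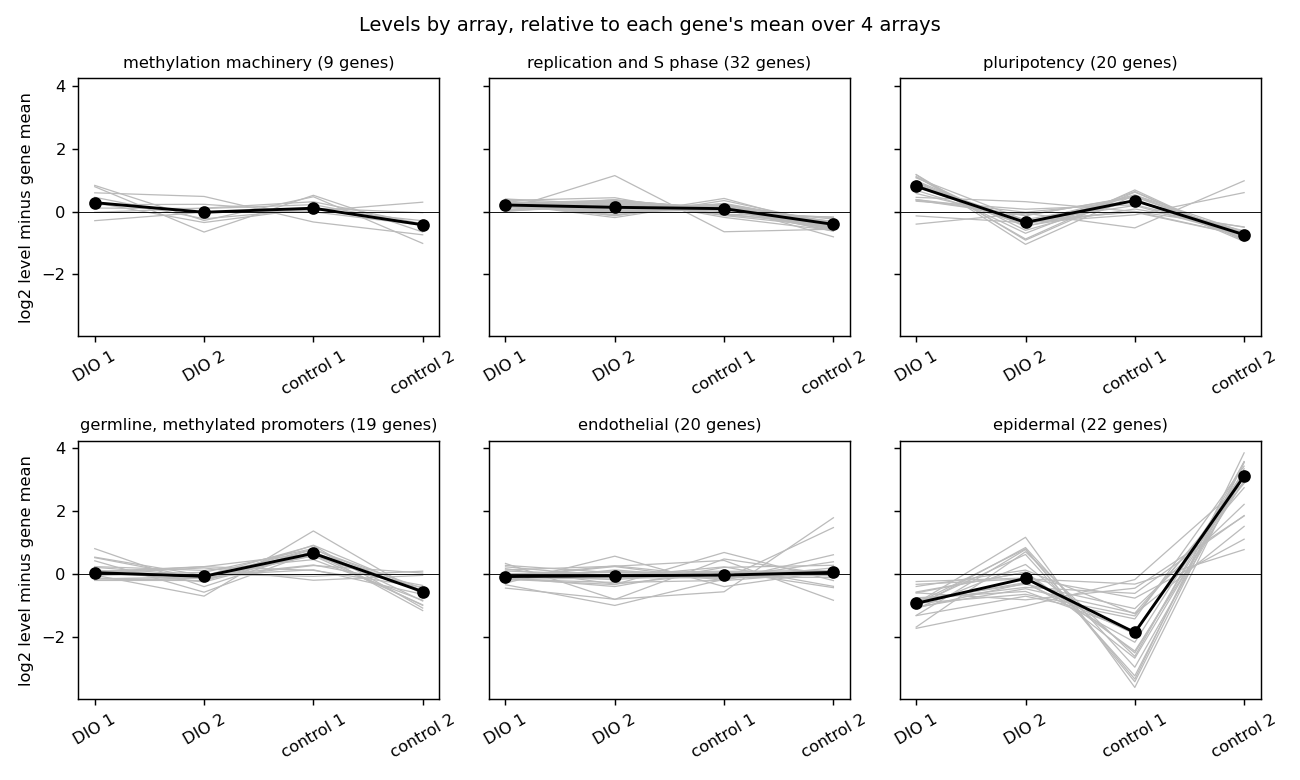
Log2 level of each gene minus its mean over the 4 arrays (vertical axis) by array, for 6 gene lists, each gene by its brightest probe set (grey lines) with the list's median (black). The median of the methylation machinery is lowest in control 2, as are those of the replication, pluripotency and germline lists, and that of the epidermal genes is highest there.

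In each list of the wider pathway, 0 genes passed the adjusted threshold. This was fixed beforehand and says nothing of the lists, since 0 of all genes passed by their brightest probe set. A higher DIO mean was found for 53.3% of all genes, the share beside which the counts of these lists stand. Of 9 measured readers of methylated DNA, 2 had a higher and 7 a lower DIO mean, with a median difference of −0.04. Mbd2, a repressor that binds methylated DNA, was at 9.57 and 9.71 in DIO and at 9.71 and 9.83 in control, and Mbd3, a subunit of the NuRD complex, differed by −0.01 ± 0.21. Zbtb38, a zinc finger reader, was at 8.23 and 7.89 in DIO and at 8.58 and 8.54 in control, a difference of −0.50 ± 0.16. Uhrf2, the relative of Uhrf1, was at 8.50 and 8.92 in DIO and at 8.42 and 8.45 in control. Its difference, 0.28 ± 0.18, ran in the direction of Uhrf1.

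Of 19 measured cofactors and regulators, 11 had a higher and 8 a lower DIO mean, with a median of 0.05. Both DIO arrays were above both controls for 2 of them and below for 0, where 21.4% and 17.0% of all genes were. Smchd1, which acts on the inactive X chromosome and imprinted clusters, was at 10.25 and 10.79 in DIO and at 9.81 and 10.19 in control, a difference of 0.52 ± 0.25. The histone methyltransferase Ehmt2 differed by 0.32 ± 0.20, and by 0.08 against control 1 alone. Pcna, the sliding clamp that Dnmt1 binds at replication forks, differed by 0.04 ± 0.19, and the corepressor Trim28 by 0.12 ± 0.17.

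Of 15 measured genes of base excision repair and related demethylation factors, 8 had a higher and 7 a lower DIO mean, with a median of 0.00. The glycosylase Neil3 was at 5.20 and 5.29 in DIO and at 5.02 and 4.82 in control, and the uracil glycosylase Smug1 at 8.20 and 8.26 in DIO and at 8.37 and 8.45 in control. Parp1 differed by 0.29 ± 0.29 and Gadd45b by 0.08 ± 0.20, both with overlapping groups. Of 18 genes that supply the methyl donor or set the level of the Tet cosubstrate, 12 had a higher and 6 a lower DIO mean, with a median of 0.08. Idh1, which makes the Tet cosubstrate oxoglutarate, differed by 0.20 ± 0.12, and Fh1, which removes the Tet inhibitor fumarate, by −0.16 ± 0.12, each without overlap. Gnmt, which uses up the methyl donor, differed by 0.12 ± 0.12, also without overlap, and the succinate dehydrogenase subunits Sdha and Sdhb by −0.03 ± 0.16 and −0.10 ± 0.20.

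Germline genes, many of which are known to be silenced by methylated promoters in body cells, were also listed. Methylation was not measured in these data, so a link of their levels to the machinery was not tested. Of 19 measured, 10 had a higher and 9 a lower DIO mean, with a median of 0.03. The count higher was 17 without control 1 and 4 without control 2. Control 1 exceeded control 2 for 17 of the 19, by a median of 1.25, and control 2 was the lowest array for 14. Over all probe sets, dimmer ones included, control 2 was lowest for 36.2%. Rhox5, a homeobox gene, was the brightest at 13.01 and 12.81 in DIO and 13.18 and 12.53 in control, followed by Tex19.1 at 10.89 and 11.05 in DIO and 11.47 and 9.82 in control. Brdt, a bromodomain protein of the testis, differed by −0.31 ± 0.14 and Tdrd1 by 0.23 ± 0.14, both without overlap and both dim. By the list's medians, the controls thus differed by more than the groups did. For Brdt and Tdrd1 the groups differed by more than the controls did.

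The genes with profiles closest to those of 2 members were found by the Euclidean distance between mean-centred log2 levels over the 4 arrays, among 18192 genes. For Dnmt3l, the member with the widest range, they were Zfp936 at a distance of 0.03, Dppa2 at 0.12, Rec114 at 0.17, Fbp2 at 0.18 and 2210409E12Rik at 0.21, where the median distance over all genes was 1.39. Dppa2, a gene of pluripotent cells, was at 9.83 and 8.70 in DIO and at 9.59 and 8.10 in control. For Hells 1417541_at they were Csf1 at 0.06, Zfp229 at 0.14, Pm20d1 at 0.14, Cmtm5 at 0.17 and Eif2s3y at 0.19, with a median of 1.11 over all genes. Over only 4 arrays many profiles lie close by, and the list describes these arrays alone.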

How the data were processed

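RNA labelled with biotin was measured on Affymetrix arrays, per the labels' protocols. The authors deposited 1 table of log2 expression levels per probe set. How they were background-corrected, normalized and summarized is not given in the sources used here, and the log2 scale was read from the values (2.59 to 14.56). Of 45101 probe sets, 64 manufacturer controls were left out. The platform annotation gave 34945 probe sets 1 symbol, 932 several and 9160 none. By gene number, 34741 of the first matched RefSeq, and 0 of their symbols changed.

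The groups were compared on every probe set with lmFit and eBayes of limma 3.58.1 (R 4.3.3, 2-sided), with Benjamini-Hochberg adjustment over all 45037 and a threshold of 0.05. The fit was tested on simulated data. The number of arrays limits the precision: the median 95% interval of a difference was 0.41 wide on each side. Nothing says whether the cultures were derived separately, so the spread between arrays may be technical in part. All member probe sets are named. Of each other list, each gene by its brightest probe set, the 2 brightest and up to 3 with the widest non-overlapping difference are named. The members, the lists and this rule were chosen with earlier results of these data known. Alternatives were other normalizations, filters, gene summaries, priors, a replicate block and leaving out each array.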

Additional observations from a re-analysis of the deposited data

How the results depend on the processing

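The count of probe sets past the adjusted threshold in limma was 0 under quantile normalization, centring, the filter on dim probe sets, both gene summaries, a trended and robust prior, and the removal of _x_at and _s_at probe sets. It ran from 0 to 592 when 1 array was left out, reaching 592 (22 higher in DIO) without control 1, and 0 of the members passed in any setting. Each of these fits leaves 1 array alone in its group, and that array is assumed to vary like the 2 of the other group. The mouse number as a replicate block also gave 0, with 3927 probe sets at an unadjusted p below 0.05 in place of 4184. Same-numbered mice deviated together with r = 0.268 across probe sets, which with 2 pairs does not show that the numbers pair the mice. Probe sets with a higher DIO mean numbered 15 of 23, but 7 of 9 genes by the brightest probe set, 6 of 9 by averaged probe sets, and 6 (without control 2) to 19 of 23 with 1 array left out. Those above both controls numbered 4, but 2 genes by either gene summary and 4 to 15 with 1 array left out, with 15 without control 1 and 11 without DIO 2. Those below both controls numbered 4, but 2 after quantile normalization, 1 gene by the brightest probe set, 2 by averaged probe sets and 4 to 11 with 1 array left out, with 11 without control 2 and 8 without DIO 1. With 1 array left out, fewer arrays have to be separated, so groups fail to overlap more easily. Those counts therefore cannot be set against the 4. Shares over all probe sets were not computed for them. The members' median difference of 0.11 ran from −0.20 to 0.47 with 1 array left out. Under the other settings it ran from 0.09 to 0.20. Of the 23 probe sets, 15 changed sign in some setting. No detection calls were used, so the dimmest probe set, Tet1 1419897_at, may not be above background.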
